A study of Mus musculus with 7 samples.

Results

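The mouse genes described here act in the cell division cycle. They are 50 listed genes, found by symbol after the version suffix of the gene identifier was dropped, out of 48709 genes in the deposited tables: 24 genes of S phase, 20 genes of G2 and mitosis (G2/M) and 6 genes of the G1 decision to divide. All 50 were found, and 38 had enough counts to be tested. The RNA came from supporting cells, which enclose and hold the sensory hair cells of the cochlea. Cochleae of mice at postnatal day 1 were kept in culture for 48 h with 1 of 3 additions. TSA (trichostatin A, an inhibitor of histone deacetylases) was given at 200 nM in 2 libraries, GSK-343 (an inhibitor of EZH2, the methyltransferase of Polycomb repressive complex 2) at 10 µM in 3 libraries, and the solvent DMSO alone in 2 libraries. All groups shared a medium with the growth factors EGF and FGF, and in all of them GFP-positive cells were sorted after trypsin digestion. The transgene and promoter behind the GFP, the strain, and whether replicates were separate cultures or animals are not given in the sources used here, so p-values reflect no more than the spread among these libraries, which are numbered as in the labels.

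Cells enter S phase when D-type cyclins with Cdk4 or Cdk6, and then cyclin E with Cdk2, phosphorylate the retinoblastoma protein and release E2F factors, which switch on genes for DNA replication. Genes for mitosis are switched on later, many through a promoter element called the cell cycle genes homology region (CHR) together with CCAAT boxes. In the mouse cochlea, supporting cells have left the cell cycle before birth and are held out of it largely by the CDK inhibitor p27Kip1, encoded by Cdkn1b.

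The promoters of 4 genes on which the results turn are shown as the 250 bases before the start of the gene, 5′ to 3′ on the gene's strand, from RefSeq on GRCm38.p6. Cdk1 (the mitotic kinase, chr10:69352913-69353162, minus strand) and Mki67 (the proliferation antigen Ki-67, chr7:135716380-135716629, minus strand) stand for G2/M. Rrm2 (the regulated subunit of ribonucleotide reductase, chr12:24708004-24708253, plus strand) and Ccne1 (cyclin E1, chr7:38107491-38107740, minus strand) stand for S phase. Capitals mark exact matches, on either strand, to the CHR letters TTTGAA, to the E2F letters TTTGGCG (or with TTTCGCG in their place, with TTTCCCG in their place or with TTTGCCG in their place), and to the CCAAT box, which reads ATTGG on the other strand. No matches to different motifs share a base in these 4 windows.
Cdk1: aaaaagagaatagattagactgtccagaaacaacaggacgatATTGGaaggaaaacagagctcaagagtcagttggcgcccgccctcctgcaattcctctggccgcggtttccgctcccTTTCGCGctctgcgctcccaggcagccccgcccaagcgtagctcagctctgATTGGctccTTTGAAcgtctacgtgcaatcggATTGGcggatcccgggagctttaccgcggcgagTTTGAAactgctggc
Mki67: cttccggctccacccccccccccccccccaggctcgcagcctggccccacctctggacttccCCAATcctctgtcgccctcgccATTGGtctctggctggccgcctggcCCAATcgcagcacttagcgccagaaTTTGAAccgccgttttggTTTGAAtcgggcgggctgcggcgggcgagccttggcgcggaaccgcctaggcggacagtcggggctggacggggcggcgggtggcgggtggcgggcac
Rrm2: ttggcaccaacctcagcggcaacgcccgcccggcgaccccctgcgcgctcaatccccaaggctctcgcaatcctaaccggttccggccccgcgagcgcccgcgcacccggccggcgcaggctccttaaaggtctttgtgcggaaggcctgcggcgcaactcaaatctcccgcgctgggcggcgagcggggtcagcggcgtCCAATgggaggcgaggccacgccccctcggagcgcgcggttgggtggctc
Ccne1: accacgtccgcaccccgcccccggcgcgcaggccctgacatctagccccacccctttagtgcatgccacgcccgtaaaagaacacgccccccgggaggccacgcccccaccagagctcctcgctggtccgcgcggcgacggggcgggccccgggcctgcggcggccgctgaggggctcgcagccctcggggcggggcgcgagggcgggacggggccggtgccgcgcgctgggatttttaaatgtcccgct

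The Cdk1 promoter held 2 CHR, 1 E2F and 3 CCAAT matches, Mki67 held 2 CHR and 3 CCAAT matches, Rrm2 held 1 CCAAT match, and Ccne1 held none of these letters in this window. Of the 50 genes, 38 had an entry in the promoter table. CHR letters were found in 8 of 17 G2/M promoters (47.1%) and 2 of 18 S phase promoters (11.1%), beside 4934 of all 27025 promoters of the same length (18.3%). E2F letters were found in 3 G2/M promoters (17.6%) and 4 S phase promoters (22.2%), beside 6.34% of all promoters. CCAAT was found in 15 G2/M promoters (88.2%) and 11 S phase promoters (61.1%), beside 37.5% of all. These matches are descriptions of letters, and no binding was measured.

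The libraries differed in more than treatment. The total expected count per library was 2724381 and 2963228 with TSA, 3398893 to 4248336 with GSK-343, and 5974230 and 5124247 with DMSO. In the deposited tables the median gap between the length and the effective length of genes was 208.2 to 212.7 bases in the 5 inhibitor libraries and 49 bases in both DMSO libraries, and the mitochondrial genome took 4.308% to 19.13% of counts in the inhibitor libraries and 25.47% to 26.8% in DMSO. Every comparison with DMSO therefore also compares libraries that were read or quantified differently, and the drug and this difference cannot be told apart. The 22 supporting cell markers summed to 12052 and 10291 CPM under TSA, 22588, 22557 and 26404 CPM under GSK-343, and 19900.3 and 17229.7 CPM under DMSO, and none had 3 counts or fewer in any library. These markers did not move together. S100a1 had 3527, 7046 and 7850.4 CPM under GSK-343 and 645 and 456 CPM under DMSO, and Hes5 and Slc1a3 were also highest under GSK-343. Prox1 had 624, 272 and 277 CPM under GSK-343 and 1778 and 1277 CPM under DMSO, and Sox10, Fabp7, Jag1 and Cdkn1b were also highest under DMSO. Here CPM are TMM-normalised counts scaled to library size, used for 1 gene or a sum of genes between libraries. TPM are used for levels between genes. Orders and overlaps of groups are in CPM unless TPM is named, and some differ in TPM.

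Levels per length ranged widely among the 50 genes. Cdk4 (the G1 kinase) had the highest mean of the 50 genes over the 7 libraries at 507 TPM, followed by Mcm7 (a subunit of the replicative helicase) at 156 TPM, Ccnd3 (cyclin D3) at 129 TPM and Rfc2 (a subunit of the clamp loader) at 64.3 TPM. Among the G2/M genes the highest means were 7.9 TPM for Hmgb2 (a chromatin architecture protein), 6.22 TPM for Cenpe (a kinetochore motor) and 6.09 TPM for Cdk1. Mki67 had a mean of 0.546 TPM, Plk1 (Polo-like kinase) 0.524 TPM and Cdc6 (a licensing factor) 0.444 TPM, the lowest of the 50. The 20 G2/M genes together held 115 and 354 counts under TSA, 128, 141 and 199 counts under GSK-343, and 348 and 274 counts under DMSO.

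**Figure D1:**
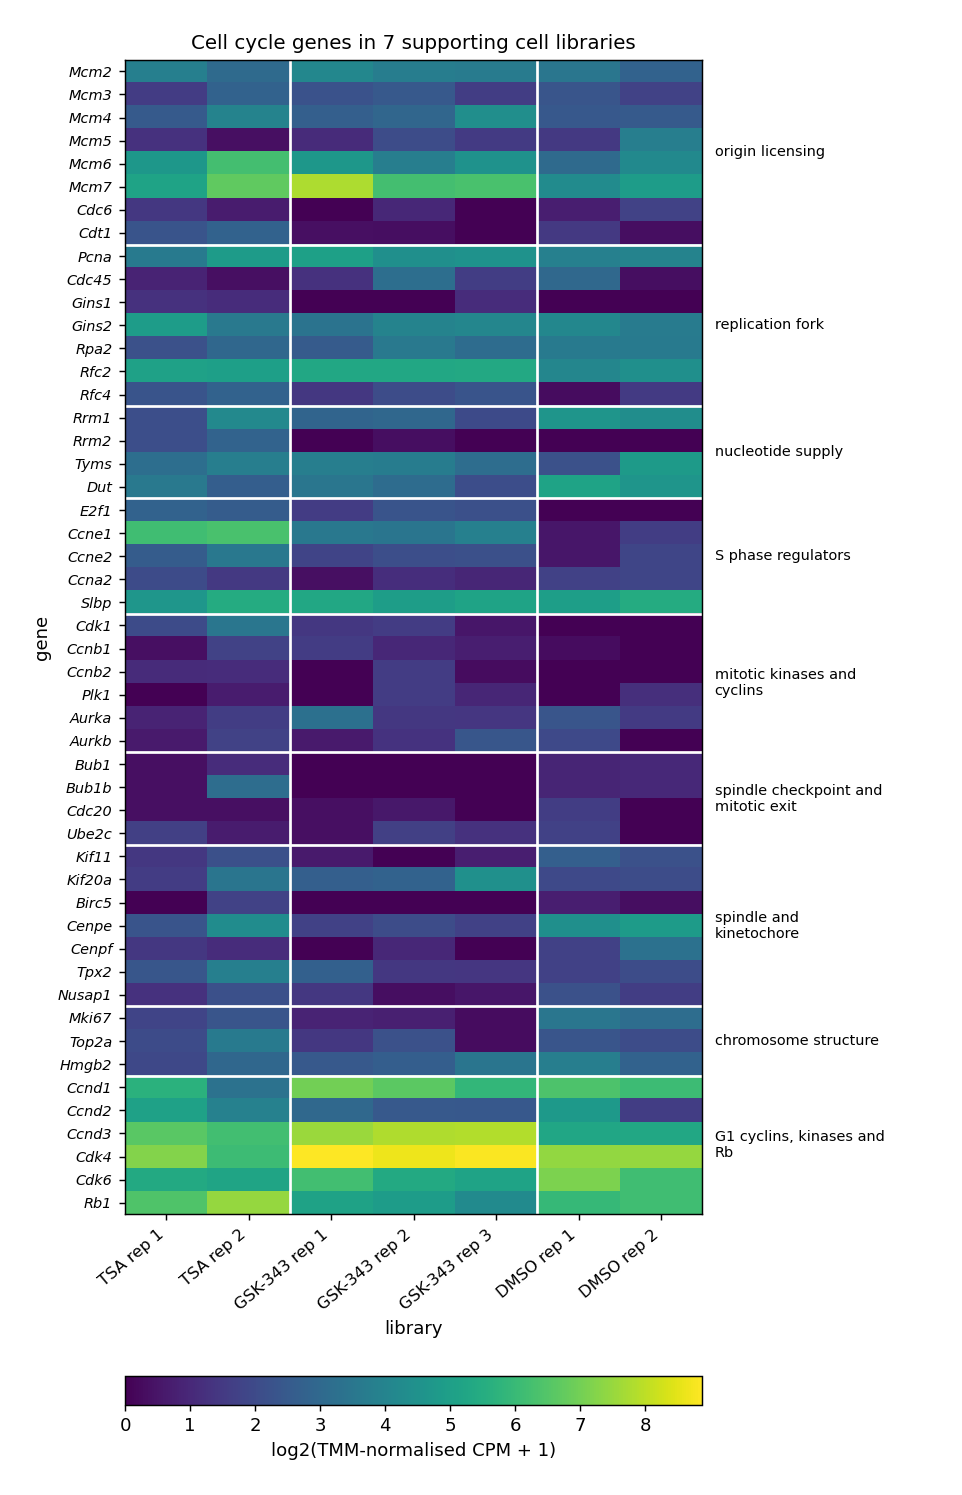
Heat map of the 50 genes, grouped by role, in the 7 libraries (columns, TSA left, then GSK-343, then DMSO). Colour is the TMM-normalised level of each gene on a log2 scale. The Cdk4 row is among the brightest, at 66.6 to 468 CPM, Ccnd2 among the G1 rows is at 2.09 CPM in 1 DMSO library, and the Bub1, Plk1 and Ccnb2 rows are near 0.

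TSA set against GSK-343 compared the 2 inhibitors, whose libraries had like gaps between length and effective length. Among the 38 tested genes, 4 were higher with TSA: Ccne1, Rb1 (the retinoblastoma protein), Rrm2 and Cdt1 (the factor that loads the helicase at origins). Ccnd3 and Cdk4 were lower. DESeq2 called 3 higher and 3 lower, without Rrm2 and Cdt1 and with Cenpe (higher) and Ccnd1 (lower). The edgeR calls were made at a Benjamini-Hochberg adjusted p under 0.05 in edgeR's quasi-likelihood test over 14907 genes. The higher calls were 10.5% of the tested members, beside 5.04% of all genes tested, and the lower calls 5.26%, beside 5.68%. The median log2 fold change of the 38 genes was 0.19, beside 0.00 over all genes. Without TSA library 2, none of 40 tested members was called in either direction in this comparison (edgeR; 3 higher and 3 lower at an unadjusted p under 0.05), and 0.905% of 17902 genes were called in all; DESeq2 was not run on those 6 libraries.

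TSA set against DMSO gave 6 genes higher (Mcm6, Rrm2, E2f1, Ccne1, Cdk1 and Ccnd3) and 1 lower (Cdk6). These were 15.8% and 2.63% of the tested members, beside 13.1% of all genes called higher and 16.1% called lower. The median log2 fold change was 0.40, beside −0.05 over all genes. With total count scaling, where the median over all genes was 0.65, the split was 10 higher and 0 lower of 38 members. Beside it, 3871 of 14907 genes were higher and 1307 lower in that setting. At an unadjusted p under 0.05 the members split 13 higher and 0 lower. DESeq2 with its own scaling gave 7 higher and 1 lower, beside 2131 and 2327 of 14907 genes. Without TSA library 2 there were 3 higher and 0 lower, and without DMSO library 1 also 3 higher and 0 lower.

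GSK-343 set against DMSO gave 7 genes higher (Mcm7, Rfc2, E2f1, Ccne1, Cdk1, Ccnd3 and Cdk4) and 7 lower (Rrm1, Dut, Kif11, Cenpe, Mki67, Cdk6 and Rb1). Each direction made up 18.4% of the tested members, beside 18.1% of all genes called higher and 21.5% called lower. These shares are near the background, so the counts describe single genes and not the list. The median log2 fold change was 0.13, beside −0.04 over all genes. With total count scaling, where the median over all genes was 0.42, the split was 7 higher and 2 lower of 38 members. Beside it, 3948 of 14907 genes were higher and 2273 lower in that setting. Without DMSO library 1 there were 3 higher and 3 lower, without DMSO library 2 there were 4 higher and 5 lower, and without GSK-343 library 3 there were 6 higher and 3 lower. Both comparisons with DMSO share its 2 libraries.

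By phase, 3 of 21 tested S phase genes were called higher and 0 lower by edgeR with TSA than with GSK-343 (14.3% higher, beside 5.04% of all genes, median log2 fold change 0.17), but DESeq2 called only 1 higher and 0 lower. With TSA than with DMSO, 4 S phase genes were higher and 0 lower (19.0% higher, beside 13.1% of all genes, median 0.48). With GSK-343 than with DMSO, 4 were higher and 2 lower (19.0% and 9.52%, beside 18.1% and 21.5%, median 0.68). Of 11 tested G2/M genes, none was called between TSA and GSK-343 by edgeR (3 higher and 0 lower at an unadjusted p under 0.05), DESeq2 called 1 higher and 0 lower, and the median log2 fold change was 1.61. For G2/M genes 1 was higher and 0 lower with TSA than with DMSO (9.09% higher, beside 13.1% of all genes, median −0.21), and 1 was higher and 3 lower with GSK-343 than with DMSO (9.09% and 27.3%, beside 18.1% and 21.5%, median −0.52); DESeq2 called 1 higher and 2 lower. Of the 6 G1 genes, 1 was higher and 2 lower with TSA than with GSK-343 (16.7% and 33.3%, beside 5.04% and 5.68% of all genes, median −0.86), 1 was higher and 1 lower with TSA than with DMSO (16.7% each, beside 13.1% and 16.1%), and 2 were higher and 2 lower with GSK-343 than with DMSO (33.3% each, beside 18.1% and 21.5%, median −0.39). Of the 38 tested genes, Cdt1, Rrm2 and Cdk1 reached the level of the low-count filter in TSA libraries alone. A further 7, Ccne1 and E2f1 among them, reached it in both inhibitor groups but in no DMSO library. Kif11, Nusap1 and Mki67 reached it in no GSK-343 library, and Mcm5, Cdc45 and Aurka in no TSA library. These counts and medians therefore describe the genes that passed and are no support for a direction.

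Summed levels showed where the libraries separated. The 24 S phase genes summed to 303 and 477 CPM under TSA, 443, 286 and 299.7 CPM under GSK-343, and 209.8 and 256 CPM under DMSO. The 20 G2/M genes summed to 32.2 and 104 CPM under TSA, 36.3, 34.3 and 46.0 CPM under GSK-343, and 78.2 and 71.4 CPM under DMSO. The 6 G1 genes summed to 455 and 372 CPM under TSA, 895, 801 and 789 CPM under GSK-343, and 521 and 425 CPM under DMSO. The S phase sums were lowest in the DMSO libraries and the G1 sums highest in the GSK-343 libraries, in CPM and in TPM. A few genes carried these orders. Mcm7 had 218 CPM in GSK-343 library 1 and 18.6 and 28.9 CPM under DMSO, and Ccne1 had 70.3 and 79.8 CPM under TSA. Cdk4 had 468, 402 and 447 CPM and Ccnd3 187, 227 and 228 CPM under GSK-343. Rrm1 and Dut were instead highest in DMSO, and Rb1 lowest in GSK-343, in CPM. The sums therefore do not describe each list as a whole. For G2/M the TSA libraries lay on either side of the other groups in CPM. In TPM the G2/M sums were 50.8 and 115 under TSA, 39.7, 48.0 and 31.5 under GSK-343, and 34.2 and 26.8 under DMSO. Both TSA libraries were then the highest. In TPM the median log2 fold change over all genes (limma on log2(TPM + 1)) was itself 0.67 with TSA against DMSO. It was 0.24 with GSK-343 against DMSO and 0.24 with TSA against GSK-343. TSA library 2 was above TSA library 1 for 18 of 20 G2/M genes, 14 of 24 S phase genes and 1 of 6 G1 genes. The 15 hair cell markers ran the other way, at 2115 CPM in TSA library 1 and 619 CPM in TSA library 2. Their part in the spread between the TSA libraries was not tested. In bulk RNA, fewer cells of a type and less RNA per cell cannot be told apart.

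**Figure D2:**
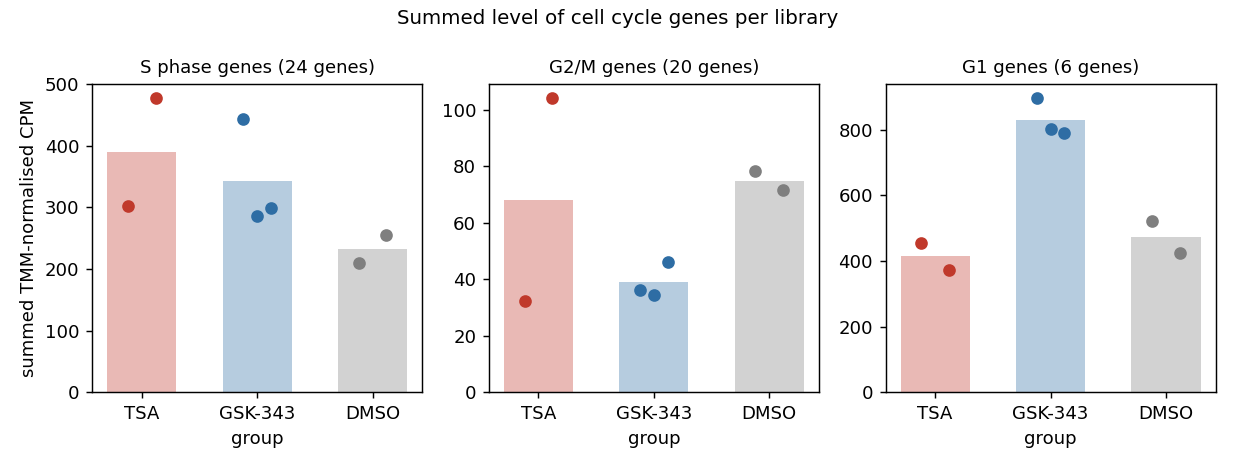
Summed TMM-normalised CPM of the S phase, G2/M and G1 genes. Points are libraries, bars are group means, and each panel has its own axis from 0. The 2 TSA libraries lie far apart for G2/M genes, at 32.2 and 104 CPM, and all 3 GSK-343 libraries lie above the others for G1 genes.

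Origin licensing genes mark and unwind the sites where replication starts. Mcm6 (a helicase subunit) had 24.9 and 73.3 CPM under TSA, 25.2, 12.9 and 22.2 CPM under GSK-343, and 7.41 and 17.7 CPM under DMSO. Both TSA libraries were above both DMSO libraries, while TSA and GSK-343 overlapped. Mcm6 rose with TSA against DMSO by 1.97 ± 0.62 (log2 fold change ± SE, adjusted p = 0.0277). That call was lost without TSA library 2 (log2 fold change 1.03, adjusted p = 0.391) and without DMSO library 1 (1.5, adjusted p = 0.156).

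Mcm7, of the same helicase, had 34.7 and 103 CPM under TSA, 218, 73.7 and 78.4 CPM under GSK-343, and 18.6 and 28.9 CPM under DMSO. All 5 inhibitor libraries were above both DMSO libraries. It rose with GSK-343 against DMSO by 2.37 ± 0.59 (adjusted p = 0.00605), a call lost without DMSO library 1 (adjusted p = 0.0737), and its log2 fold change with TSA against DMSO was 1.54 ± 0.60 (adjusted p = 0.0702, and 0.0366 with DESeq2). Of its exonic bases, 12.6% overlap other genes (Ap4m1 and Cops6 on the other strand, Mir93 and Mir25 on the same strand), and the strand used in counting is not given in the sources used here. The other helicase subunits were not called. Mcm2 had 13.2 and 7.33 CPM under TSA, 16.4, 12.4 and 11.8 CPM under GSK-343, and 10.3 and 6.0 CPM under DMSO. Mcm5 had 1.4 and 0.293 CPM under TSA, 1.13, 3.16 and 1.85 CPM under GSK-343, and 1.8 and 12.8 CPM under DMSO. Neither passed the test in any comparison (edgeR adjusted p of 0.722, 0.753 and 0.377 for Mcm2 and of 0.537, 0.0869 and 0.181 for Mcm5, in the order TSA against GSK-343, TSA against DMSO, GSK-343 against DMSO).

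Cdt1 had 3.92 and 5.87 CPM under TSA, 0.283, 0.243 and 0 CPM under GSK-343, and 1.8 and 0.261 CPM under DMSO. The TSA libraries were above all others. With 34 counts under TSA and 2 under GSK-343, the ratio was 29.1 (95% counting interval 7.47 to 250.3), and edgeR gave an adjusted p of 0.0375. Cdt1 entered the test only through the TSA libraries, the ones where it is high, so the test adds little to the counts. The adjusted p was 0.0651 with no low-count filter, 0.0537 with DESeq2 and 0.0617 with limma on log2(TPM + 0.1), and the call was also lost without GSK-343 library 2 (adjusted p = 0.0734), GSK-343 library 3 (0.0997), TSA library 1 (0.196) or TSA library 2 (0.473). Cdc6 had 1.68 and 0.587 CPM under TSA, 0, 0.974 and 0 CPM under GSK-343, and 0.674 and 2.35 CPM under DMSO, and was too low to be tested.

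At the replication fork, Rfc2 had 33.0 and 31.1 CPM under TSA, 39.4, 38.7 and 40.2 CPM under GSK-343, and 15.9 and 20.6 CPM under DMSO. The 3 groups did not overlap. Rfc2 rose with GSK-343 against DMSO by 1.11 ± 0.41 (adjusted p = 0.0417), and the call was lost without DMSO library 1 (0.165), DMSO library 2 (0.072), GSK-343 library 2 (0.0849) or GSK-343 library 3 (0.0993). With a trend on GC content and length removed from each library the log2 fold change was 0.48 (adjusted p = 0.329). The Rfc2 call was kept under 6 of 17 alternatives. It was also lost in edgeR with DESeq2 size factors (0.0537), no low-count filter (0.0575) and 50 counts in 2 libraries (0.0609). Only the 2 groups compared (0.0567), protein-coding nuclear genes only (0.0555) and a replicate block (0.132) ended it too. Pcna (the sliding clamp) had 11.2 and 28.2 CPM under TSA, 32.0, 20.2 and 22.2 CPM under GSK-343, and 13.7 and 14.6 CPM under DMSO. The TSA libraries spanned the DMSO pair, and Pcna was not called (adjusted p of 0.724 for TSA against GSK-343, then 0.564 for TSA against DMSO, then 0.24 for GSK-343 against DMSO). Gins1 (a subunit that activates the helicase) had 1.4 and 1.17 CPM under TSA, 0, 0 and 1.16 CPM under GSK-343, and 0 in both DMSO libraries, and was too low to be tested.

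Enzymes that supply nucleotides did not move together. Rrm2 had 3.36 and 6.16 CPM under TSA, 0, 0.243 and 0 CPM under GSK-343, and 0 in both DMSO libraries. It was counted in both TSA libraries and nearly nowhere else. Against DMSO it was at least 6.54-fold higher with TSA, taking a floor of 3 counts per library (adjusted p = 0.0152), and against GSK-343 the 33 counts to 1 gave a ratio of 56.5 (95% counting interval 9.47 to 2300.4, adjusted p = 0.0305). Rrm2 too entered the test only through the TSA libraries, so the test adds little to the counts. With no low-count filter the adjusted p was 0.0255 against DMSO and 0.0497 against GSK-343, and with DESeq2 it was 0.0308 and 0.0634. The first call was lost without DMSO library 1 (0.1), DMSO library 2 (0.0887) or TSA library 1 (0.124), the second without GSK-343 library 3 (0.0823) or TSA library 1 (0.196), and the low-count filter removed Rrm2 when TSA library 2 was left out.

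Rrm1 (the large subunit of the same reductase) had 3.36 and 17.0 CPM under TSA, 6.23, 6.82 and 3.01 CPM under GSK-343, and 24.0 and 19.3 CPM under DMSO. Dut (dUTPase, which keeps uracil out of DNA) had 10.9 and 5.28 CPM under TSA, 10.2, 7.79 and 3.24 CPM under GSK-343, and 34.8 and 23.5 CPM under DMSO. For both genes the DMSO libraries were the highest. With GSK-343 against DMSO, Rrm1 fell by 2.01 ± 0.70 (adjusted p = 0.0324) and Dut fell by 2.04 ± 0.61 (adjusted p = 0.0158), on the log2 scale. The Rrm1 call was lost without DMSO library 1 (0.12), DMSO library 2 (0.0615) or GSK-343 library 3 (0.103), and the Dut call without DMSO library 1 (0.107) or GSK-343 library 3 (0.0607). With TSA against DMSO the log2 fold changes were −1.09 for Rrm1 (adjusted p = 0.307) and −1.84 for Dut (adjusted p = 0.0589).

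Among the regulators of S phase entry, Ccne1 differed in all 3 comparisons. It had 70.3 and 79.8 CPM under TSA, 10.8, 9.98 and 13.4 CPM under GSK-343, and 0.449 and 2.09 CPM under DMSO. No 2 groups overlapped, and the order was TSA above GSK-343 above DMSO. Ccne1 had 2 and 8 counts in the DMSO libraries, and it entered the test only through inhibitor libraries. The means were 75.0 ± 6.71 CPM under TSA (SD, n = 2), 11.4 ± 1.8 CPM under GSK-343 (n = 3) and 1.27 ± 1.16 CPM under DMSO (n = 2). Ccne1 rose by 2.72 ± 0.48 with TSA against GSK-343 (log2 fold change ± SE, adjusted p = 0.00473, and 0.0884 with limma on log2(TPM + 0.1)), by 5.89 ± 0.68 with TSA against DMSO (adjusted p = 4.39e-05) and by 3.17 ± 0.62 with GSK-343 against DMSO (adjusted p = 0.00128). The first of these was 2.6 with an adjusted p of 0.0648 without TSA library 2.

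E2f1 (the transcription factor that drives replication genes) had 5.88 and 4.99 CPM under TSA, 1.98, 3.89 and 3.47 CPM under GSK-343, and 0 in both DMSO libraries. It was counted in all 5 inhibitor libraries and in no DMSO library, and it entered the test only through inhibitor libraries. Against the floor of 3 counts, E2f1 was at least 7.46-fold higher with TSA than with DMSO (adjusted p = 0.00687) and at least 4.28-fold higher with GSK-343 than with DMSO (adjusted p = 0.00719). Both inhibitor groups held 38 counts of E2f1 in all, and TSA against GSK-343 was not called (log2 fold change 0.79 ± 0.94, adjusted p = 0.623).

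Ccne2 (cyclin E2) had 5.04 and 10.6 CPM under TSA, 2.55, 3.41 and 3.47 CPM under GSK-343, and 0.449 and 2.61 CPM under DMSO. The TSA libraries were the highest, but no comparison was called, with log2 fold changes of 1.30 for TSA against GSK-343 (adjusted p = 0.373), then 2.35 for TSA against DMSO (0.113), then 1.05 for GSK-343 against DMSO (0.424). Slbp (which binds the stem-loop of histone mRNA) had 24.1 and 43.1 CPM under TSA, 39.1, 29.7 and 34.5 CPM under GSK-343, and 30.5 and 42.5 CPM under DMSO. Its groups overlapped throughout, with log2 fold changes of −0.03 ± 0.41 for TSA against GSK-343, then −0.12 ± 0.45 for TSA against DMSO, then −0.09 ± 0.41 for GSK-343 against DMSO (adjusted p of 0.983, 0.869 and 0.887). On log2(TPM + 1) with limma the TSA against DMSO value for Slbp was 1.12. Ccna2 (cyclin A2) had 3.08 and 1.76 CPM under TSA, 0.283, 1.22 and 0.925 CPM under GSK-343, and 2.25 and 2.61 CPM under DMSO, and was too low to be tested.

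**Figure D3:**
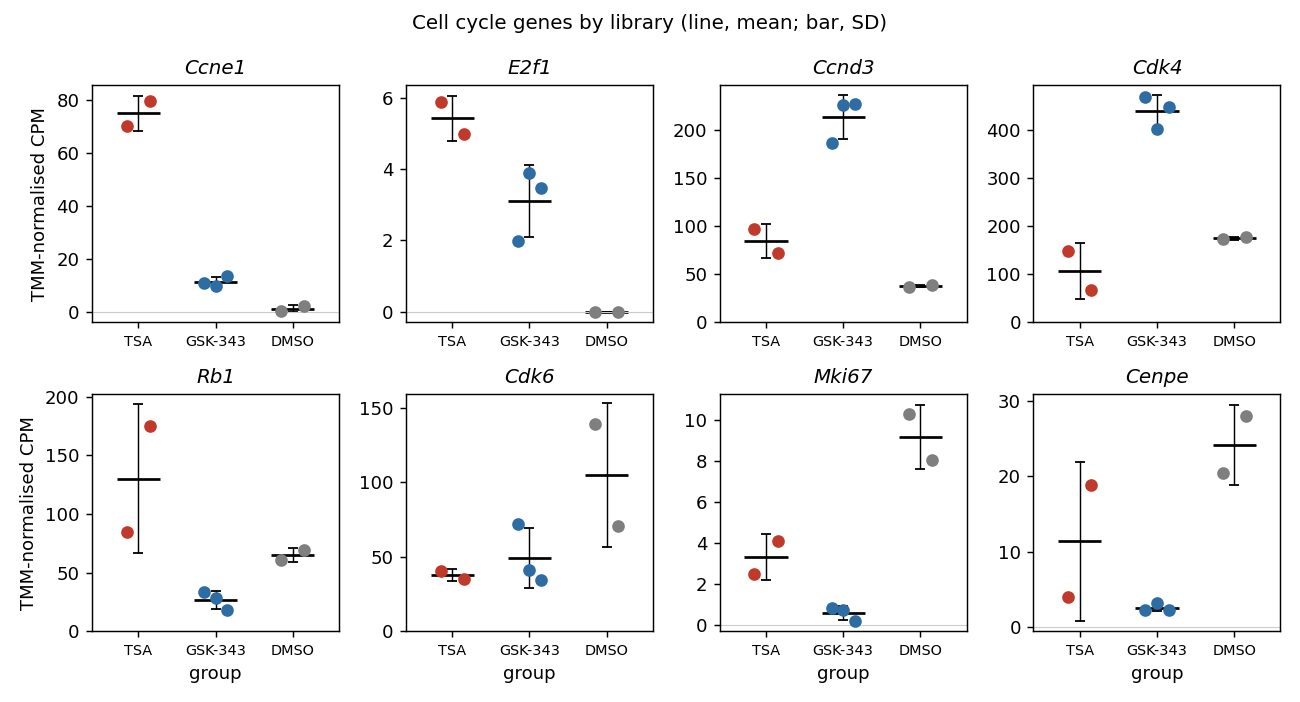
TMM-normalised CPM of 8 cell cycle genes by group (TSA, GSK-343, DMSO from left), on linear axes that differ between panels. Points are libraries, lines are group means and bars are SD. Ccne1 stands at 70.3 and 79.8 CPM under TSA and below 3 CPM under DMSO, and Cdk4 at 402 to 468 CPM under GSK-343.

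Of the mitotic kinases and cyclins, Cdk1 alone was called in any comparison. It had 3.08 and 10.3 CPM under TSA, 1.7, 1.95 and 0.462 CPM under GSK-343, and 0 in both DMSO libraries. The order by library was TSA, then GSK-343, then DMSO, without overlap. Cdk1 reached the level of the low-count filter only in the TSA libraries. Against the floor of 3 counts, Cdk1 was at least 9.17-fold higher with TSA than with DMSO (46 counts in TSA, adjusted p = 0.00884) and at least 1.88-fold higher with GSK-343 than with DMSO (16 counts in GSK-343, adjusted p = 0.0351), and TSA against GSK-343 gave a log2 fold change of 2.27 ± 1.07 (adjusted p = 0.183). The TSA call was lost without DMSO library 1 (0.0567) or TSA library 2 (0.169), and the GSK-343 call without DMSO library 1 (0.123), DMSO library 2 (0.109), GSK-343 library 1 (0.0514) or GSK-343 library 2 (0.065).

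The partners of Cdk1 were near the limit of detection. Ccnb1 (cyclin B1) had 0.28 and 2.35 CPM under TSA, 1.98, 0.974 and 0.694 CPM under GSK-343, and 0.225 and 0 CPM under DMSO. Plk1 had 0 and 0.587 CPM under TSA, 0, 1.95 and 0.925 CPM under GSK-343, and 0 and 1.3 CPM under DMSO. At 3 counts a gene has 0.674 to 0.88 CPM in these libraries, so a difference in these genes was not detectable at this depth.

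Spindle checkpoint and mitotic exit genes were as low. Ube2c (the ubiquitin-conjugating enzyme of the anaphase-promoting complex) had 2.24 and 0.587 CPM under TSA, 0.283, 2.19 and 1.39 CPM under GSK-343, and 2.25 and 0 CPM under DMSO. Bub1 (a checkpoint kinase) had 0.28 and 1.17 CPM under TSA, 0 in all GSK-343 libraries, and 0.898 and 1.04 CPM under DMSO. Birc5 (survivin, of the chromosomal passenger complex) had 0 and 2.35 CPM under TSA, 0 in all GSK-343 libraries, and 0.674 and 0.261 CPM under DMSO. None of the 3 was tested, and all 3 were near the level of 3 counts.

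Of the spindle and kinetochore genes, Cenpe and Kif11 were lowest in CPM under GSK-343. Cenpe had 3.92 and 18.8 CPM under TSA, 2.27, 3.16 and 2.31 CPM under GSK-343, and 20.4 and 27.9 CPM under DMSO. Kif11 (the motor that separates the spindle poles) had 1.68 and 3.52 CPM under TSA, 0.567, 0 and 0.694 CPM under GSK-343, and 5.39 and 3.65 CPM under DMSO. In CPM the 3 groups did not overlap for either gene, with GSK-343 lowest and DMSO highest. In TPM, which also carries the effective length, Cenpe did overlap, at 1.27 and 16.4 TPM under TSA, 3.09, 3.04 and 1.13 TPM under GSK-343, and 2.93 and 15.8 TPM under DMSO. For Kif11 the TSA libraries, at 0.91 and 1.59 TPM, overlapped DMSO, at 1.26 and 0.77 TPM, with GSK-343 still lowest. Kif11 had 2, 0 and 3 counts under GSK-343, at or below the floor of 3 counts. It reached the level of the low-count filter in no GSK-343 library. Against DMSO, Cenpe fell by 3.21 ± 0.71 with GSK-343 (log2 scale, adjusted p = 0.0027), and Kif11 fell by 3.34 ± 1.17 (adjusted p = 0.0335). With limma the Cenpe value was −1.31 on log2(TPM + 1) (adjusted p = 0.356) and −1.59 on log2(TPM + 0.1) (0.381), which ended the call, and DESeq2 gave Kif11 an adjusted p of 0.0533. The Kif11 call was lost without DMSO library 1 (0.159), DMSO library 2 (0.0747) or GSK-343 library 2 (0.0847), and with the GC and length trend removed it was −1.93 (adjusted p = 0.203). For TSA against GSK-343 the log2 fold changes were 2.12 ± 0.71 for Cenpe (adjusted p = 0.0649, and 0.0406 with DESeq2) and 2.54 ± 1.19 for Kif11 (adjusted p = 0.176).

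Mki67 had 2.52 and 4.11 CPM under TSA, 0.85, 0.73 and 0.231 CPM under GSK-343, and 10.3 and 8.08 CPM under DMSO. In CPM the groups did not overlap, with means of 3.31 ± 1.12 CPM under TSA (SD, n = 2), 0.604 ± 0.328 CPM under GSK-343 (n = 3) and 9.21 ± 1.59 CPM under DMSO (n = 2). In TPM, TSA (0.64 and 0.87) overlapped DMSO (1.17 and 0.8). The GSK-343 libraries held 3, 3 and 1 counts, at or below the floor of 3 counts, and none reached the level of the low-count filter. Mki67 fell by 3.88 ± 0.95 with GSK-343 against DMSO (log2 scale, adjusted p = 0.00515), and the log2 fold changes were −1.47 ± 0.97 for TSA against DMSO (adjusted p = 0.272) and 2.41 ± 0.97 for TSA against GSK-343 (adjusted p = 0.117). Mki67 and Cdk1 stood in opposite order between GSK-343 and DMSO, but on few counts. In all, Mki67 had 7 counts under GSK-343 and 77 under DMSO, and Cdk1 had 16 and 0. The 8 endothelium markers also summed highest in DMSO, at 12 and 9.09 CPM under TSA, 3.12, 4.38 and 7.63 CPM under GSK-343, and 34.8 and 34.9 CPM under DMSO. Flt1 alone gave 21.8 and 13.8 CPM of the DMSO sums, and Pecam1 was highest in GSK-343 library 3 (4.16 CPM). The 8 Schwann cell markers summed to 312 and 327 CPM under TSA, 929.9, 498 and 727 CPM under GSK-343, and 200.1 and 261 CPM under DMSO. The 12 macrophage markers summed to 5.6 and 4.99 CPM under TSA, 31.4, 4.38 and 38.2 CPM under GSK-343, and 22.5 and 30.8 CPM under DMSO. The part of such cells in the levels of Mki67, Cenpe and Kif11 was not tested.

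Top2a (the topoisomerase that untangles sister chromatids) had 3.08 and 11.7 CPM under TSA, 1.7, 3.65 and 0.231 CPM under GSK-343, and 4.04 and 3.13 CPM under DMSO. Hmgb2 had 2.8 and 6.75 CPM under TSA, 4.53, 5.35 and 9.94 CPM under GSK-343, and 13 and 6.0 CPM under DMSO. The groups overlapped for both genes. No comparison was called for Top2a (adjusted p of 0.225 for TSA against GSK-343, then 0.516 for TSA against DMSO, then 0.496 for GSK-343 against DMSO) or for Hmgb2 (0.746, 0.404 and 0.611 in the same order).

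Of the 6 G1 genes, edgeR separated TSA and GSK-343 for 3, Ccnd3, Cdk4 and Rb1, and DESeq2 called 1 higher and 3 lower, the addition being Ccnd1. Ccnd3 had 96.9 and 72.2 CPM under TSA, 187, 227 and 228 CPM under GSK-343, and 37.1 and 38.8 CPM under DMSO. No groups overlapped. Ccnd3 fell by 1.34 ± 0.32 with TSA against GSK-343 (log2 scale, adjusted p = 0.0195), rose by 1.15 ± 0.35 with TSA against DMSO (adjusted p = 0.022) and rose by 2.49 ± 0.34 with GSK-343 against DMSO (adjusted p = 9.71e-05). The first call was lost without GSK-343 library 3 (0.0617) or TSA library 2 (0.242), and the second without DMSO library 1 (0.105), DMSO library 2 (0.0891) or TSA library 1 (0.14). With the GC and length trend removed these 2 values were −0.80 (adjusted p = 0.0787) and 0.58 (adjusted p = 0.141).

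Cdk4 had 149 and 66.6 CPM under TSA, 468, 402 and 447 CPM under GSK-343, and 173 and 177 CPM under DMSO. In CPM the GSK-343 libraries were above all others and both TSA libraries below both DMSO libraries. In TPM GSK-343 was also highest, but TSA, at 499 and 180 TPM, lay above DMSO, at 167 and 118 TPM. The means were 108 ± 58.3 CPM under TSA (SD, n = 2), 439 ± 33.5 CPM under GSK-343 (n = 3) and 175 ± 2.37 CPM under DMSO (n = 2). Cdk4 fell by 2.03 ± 0.37 with TSA against GSK-343 (log2 scale, adjusted p = 0.00534) and rose by 1.33 ± 0.36 with GSK-343 against DMSO (adjusted p = 0.00835), and TSA against DMSO was −0.70 ± 0.38 (adjusted p = 0.175). The first call was lost without TSA library 2 (0.0749), the second without DMSO library 1 (0.0594) or DMSO library 2 (0.0568), and the second was 0.46 (adjusted p = 0.281) with the GC and length trend removed. Of the exonic bases of Cdk4, 19.7% overlap Tspan31 on the other strand, and 4.11% of those of Ccnd3 overlap Bysl.

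Rb1, which holds E2F factors in check, had 85.1 and 175 CPM under TSA, 33.7, 28.7 and 18 CPM under GSK-343, and 60.6 and 69.3 CPM under DMSO. Its order in CPM was the reverse of that of Cdk4, with TSA above DMSO above GSK-343 and no overlap. In TPM the order was not kept, as GSK-343 library 1 (26.5 TPM) lay above both DMSO libraries (25.7 and 22.3 TPM). Rb1 rose by 2.28 ± 0.40 with TSA against GSK-343 (adjusted p = 0.00473) and fell by 1.28 ± 0.40 with GSK-343 against DMSO (log2 scale, adjusted p = 0.019), and TSA against DMSO was 1.00 ± 0.44 (adjusted p = 0.0986). The first was 1.65 (adjusted p = 0.0956) without TSA library 2. The second was lost without DMSO library 1 (0.0569), DMSO library 2 (0.0951) or GSK-343 library 3 (0.0742), and was −0.16 (adjusted p = 0.743) with the GC and length trend removed. Of its exonic bases, 14.9% overlap a gene on the other strand.

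Cdk6 (the other G1 kinase) had 40.6 and 34.9 CPM under TSA, 72.0, 41.4 and 34.2 CPM under GSK-343, and 139 and 70.9 CPM under DMSO. The inhibitor groups overlapped, TSA lay below DMSO, and GSK-343 library 1 was just above DMSO library 2. Cdk6 fell by 1.47 ± 0.46 with TSA against DMSO (log2 scale, adjusted p = 0.027) and by 1.10 ± 0.41 with GSK-343 against DMSO (adjusted p = 0.0438). Without DMSO library 1 these were −0.88 (adjusted p = 0.257) and −0.49 (0.488). The first was also lost without TSA library 1 (0.0857) or TSA library 2 (0.157), and the second without GSK-343 library 2 (0.114) or GSK-343 library 3 (0.141). With total count scaling they were −0.76 (adjusted p = 0.225) and −0.63 (0.246).

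The other D cyclins were not called by edgeR. Ccnd1 (cyclin D1) had 50.4 and 9.09 CPM under TSA, 127, 97.4 and 57.3 CPM under GSK-343, and 83.8 and 67.0 CPM under DMSO, with adjusted p of 0.0809 for TSA against GSK-343, then 0.116 for TSA against DMSO, then 0.673 for GSK-343 against DMSO. Ccnd2 (cyclin D2) had 33.0 and 13.8 CPM under TSA, 7.08, 4.62 and 4.39 CPM under GSK-343, and 26.7 and 2.09 CPM under DMSO, with adjusted p of 0.0957, 0.577 and 0.167 in the same order. For TSA against GSK-343, DESeq2 called Ccnd1 lower (adjusted p = 0.0382) but not Ccnd2 (0.0643), and edgeR with no low-count filter called Ccnd1 lower (log2 fold change −1.68, adjusted p = 0.00242) and Ccnd2 higher (2.10, adjusted p = 0.0276). Both TSA libraries were below all GSK-343 libraries for Ccnd1 and above all of them for Ccnd2.

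The remaining members were tested and not called, or were too low to be tested. The tested ones were Mcm3, Mcm4, Cdc45, Gins2, Rpa2, Rfc4 and Tyms of S phase and Aurka, Aurkb, Kif20a, Tpx2 and Nusap1 of G2/M. Their adjusted p in edgeR ranged from 0.13 for Kif20a with GSK-343 against DMSO to 0.989 for Aurkb with TSA against DMSO. Kif20a (a kinesin of the midzone) had 1.96 and 9.97 CPM under TSA, 5.38, 5.84 and 21 CPM under GSK-343, and 2.92 and 3.13 CPM under DMSO, and 29.3% of its exonic bases overlap Cdc23 on the other strand. Gins2 (a partner of Gins1) had 28.6 and 10.9 CPM under TSA, 9.35, 14.8 and 16 CPM under GSK-343, and 16.2 and 12 CPM under DMSO, and 67.3% of its exonic bases overlap Gse1. Both ranges overlapped between all groups but Kif20a between GSK-343 and DMSO. The untested Bub1b (a checkpoint protein) had 0.28 and 7.92 CPM under TSA, 0 in all GSK-343 libraries, and 0.898 and 1.04 CPM under DMSO, and its level rested on TSA library 2. Ccnb2 (cyclin B2), Cdc20 (an activator of the anaphase-promoting complex) and Cenpf (a kinetochore protein) were also too low to be tested, and the highest of their values was 8.86 CPM for Cenpf in DMSO library 2.

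**Figure D4:**
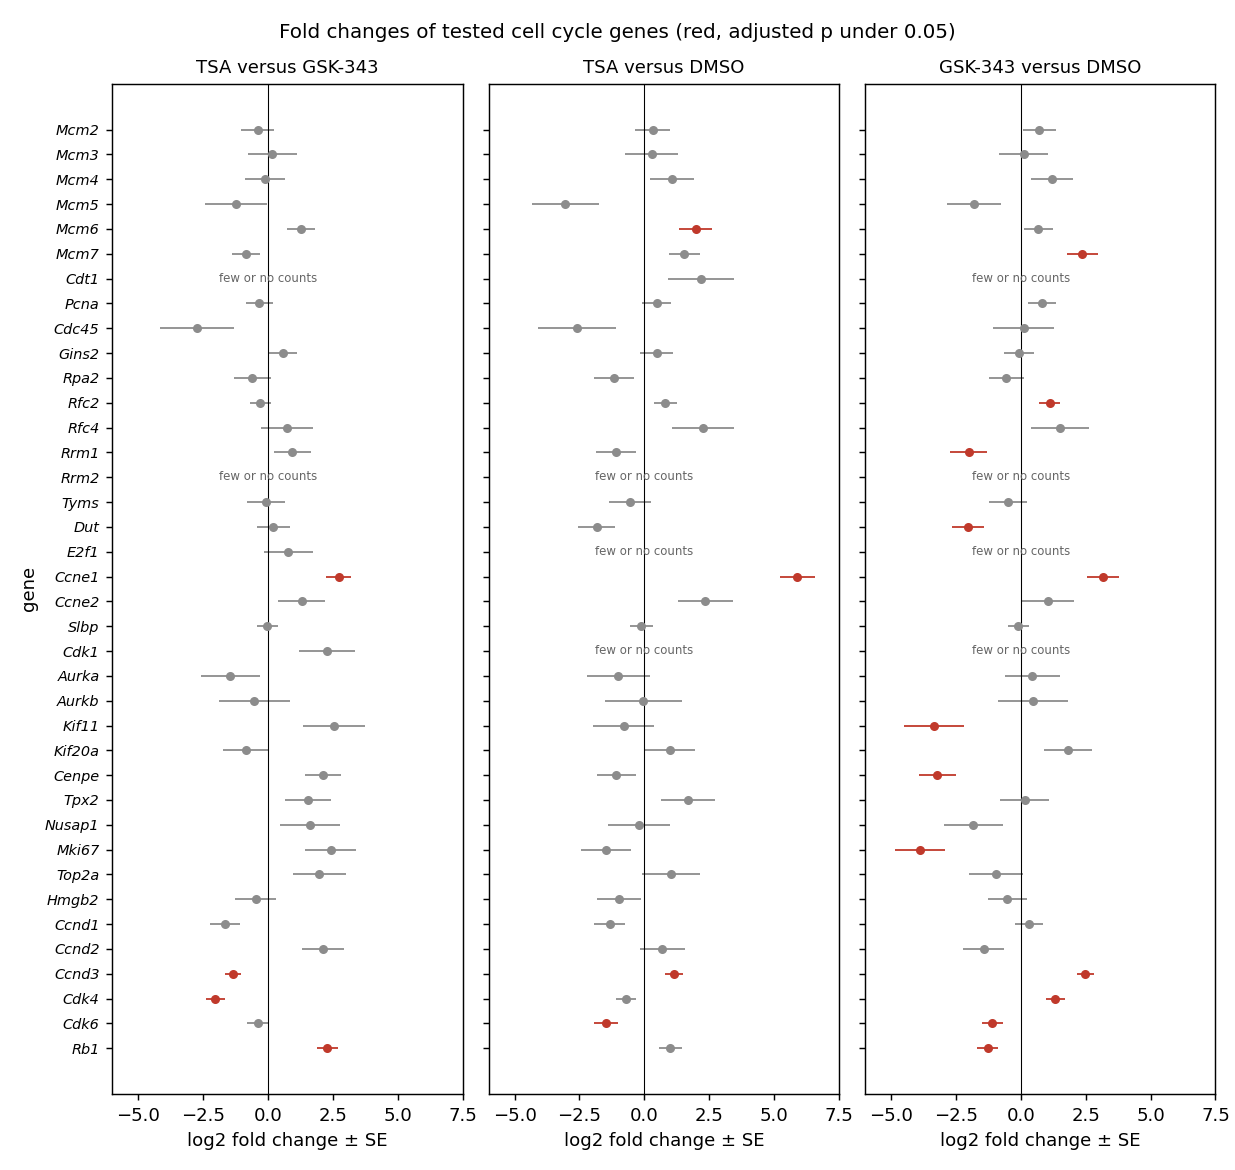
Log2 fold changes of the tested cell cycle genes in the 3 comparisons, from edgeR. Rows are genes, bars are standard errors, red marks an adjusted p under 0.05, and "few or no counts" stands where a group had 3 counts or fewer in all. Ccne1 is to the right in all 3 comparisons, at 2.72, 5.89 and 3.17.

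The rest of the pathway was read from 5 further lists. The 7 CDK inhibitor genes, which block the cyclin kinases, included 4 that were tested. Cdkn1b had 59.1 and 47.2 CPM under TSA, 77.1, 70.6 and 33.5 CPM under GSK-343, and 736 and 581 CPM under DMSO. Cdkn1a (p21) had 34.4 and 34.9 CPM under TSA, 41.1, 93.5 and 119 CPM under GSK-343, and 227 and 236 CPM under DMSO. For both, every inhibitor library was below both DMSO libraries. With TSA against DMSO, Cdkn1b fell by 3.63 ± 0.43 (log2 scale, adjusted p = 5.97e-05) and Cdkn1a fell by 2.74 ± 0.46 (adjusted p = 0.000797). With GSK-343 against DMSO, Cdkn1b fell by 3.45 ± 0.37 (adjusted p = 1.41e-05) and Cdkn1a fell by 1.45 ± 0.39 (adjusted p = 0.00798). Cdkn1c (p57) had 16.5 and 17.0 CPM under TSA, 22.7, 13.4 and 56.6 CPM under GSK-343, and 20.4 and 28.7 CPM under DMSO, and was not called. Of these 4, 0 were higher and 2 lower with TSA than with DMSO (median −1.64), which is 50.0% lower beside 16.1% of all genes, and 0 were higher and 2 lower with GSK-343 than with DMSO (median −0.56), which is 50.0% lower beside 21.5% of all genes. Between TSA and GSK-343 none was called by edgeR (0 higher and 1 lower at an unadjusted p under 0.05, 0 higher and 1 lower with DESeq2, median −0.53). Cdkn1b is also 1 of the 22 supporting cell markers.

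Of 30 other replication genes, 27 were tested: 2 were higher and 0 lower with TSA than with GSK-343 (median 0.41), 2 higher and 1 lower with TSA than with DMSO (median 0.14), and 1 higher and 1 lower with GSK-343 than with DMSO (median −0.23). The higher calls were 7.41% of the tested genes with TSA against GSK-343, beside 5.04% of all genes. With TSA against DMSO the shares were 7.41% higher and 3.70% lower, beside 13.1% and 16.1%, and with GSK-343 against DMSO they were 3.70% in each direction, beside 18.1% and 21.5%. Prim1 (the primase subunit that starts each strand) had 8.4 and 22 CPM under TSA, 0, 0.974 and 1.62 CPM under GSK-343, and 6.29 and 8.86 CPM under DMSO. GSK-343 lay below both other groups. Prim1 rose by 4.05 ± 0.96 with TSA against GSK-343 (adjusted p = 0.0178) and fell by 3.04 ± 0.95 with GSK-343 against DMSO (log2 scale, adjusted p = 0.0189); the first was lost without TSA library 2 (0.267) and the second without DMSO library 2 (0.0639). Cdc7 (a kinase that fires origins) rose by 2.02 ± 0.59 with TSA against GSK-343 (adjusted p = 0.04). With TSA against DMSO, Pole (the catalytic subunit of DNA polymerase epsilon) fell by 2.99 ± 0.67 (log2 scale, adjusted p = 0.007), Orc5 (a subunit of the origin recognition complex) rose by 1.73 ± 0.52 (0.0219) and Rpa1 (which coats single-stranded DNA) rose by 1.66 ± 0.53 (0.0287), and Orc5 rose by 1.93 ± 0.49 with GSK-343 against DMSO (0.00659). Calls were lost for Cdc7 without GSK-343 library 2 (0.109), GSK-343 library 3 (0.0938) or TSA library 2 (0.471), for Pole without DMSO library 1 (0.053), for Orc5 with TSA against DMSO without DMSO library 1 (0.106), TSA library 1 (0.0585) or TSA library 2 (0.121), and for Rpa1 without DMSO library 1 (0.106), DMSO library 2 (0.0692) or TSA library 2 (0.267). In TPM, Pole was at 51.2 and 8.68 TPM under TSA and 61.7 and 41.6 TPM under DMSO, so the TSA libraries overlapped DMSO, and limma gave −1.20 (0.302) on log2(TPM + 1) and −1.26 (0.321) on log2(TPM + 0.1), which ended the call.

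Of 36 other mitotic genes, 22 were tested: 2 were higher and 0 lower with TSA than with GSK-343 (median 1.03), 3 higher and 3 lower with TSA than with DMSO (median 0.09), and 2 higher and 4 lower with GSK-343 than with DMSO (median −0.99). The shares were 9.09% higher with TSA against GSK-343, beside 5.04% of all genes, 13.6% in each direction with TSA against DMSO, beside 13.1% higher and 16.1% lower, and 9.09% higher and 18.2% lower with GSK-343 against DMSO, beside 18.1% and 21.5%. Cdc25b (the phosphatase that activates Cdk1) had 149 and 59.8 CPM under TSA, 169, 63.8 and 143 CPM under GSK-343, and 2.25 and 5.74 CPM under DMSO. All inhibitor libraries were far above DMSO. Cdc25b rose by 4.72 ± 0.65 with TSA against DMSO (adjusted p = 0.00024) and by 4.98 ± 0.64 with GSK-343 against DMSO (adjusted p = 7.39e-05). Racgap1 (needed to form the midzone and divide the cell) had 12 and 17.6 CPM under TSA, 0.85, 1.22 and 1.85 CPM under GSK-343, and 9.21 and 5.74 CPM under DMSO. It rose by 3.46 ± 0.77 with TSA against GSK-343 (adjusted p = 0.0133) and fell by 2.48 ± 0.76 with GSK-343 against DMSO (log2 scale, adjusted p = 0.0179), calls lost without TSA library 2 (0.185) and without DMSO library 1 (0.0852). Like Prim1, Racgap1 was lowest in the GSK-343 libraries.

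The other mitotic genes named by rule had less stable calls. Kif18a (a kinesin that aligns chromosomes) rose by 2.97 ± 0.88 with TSA against GSK-343 (adjusted p = 0.0435), with adjusted p of 0.0682, 0.0745 and 0.116 without GSK-343 libraries 1, 2 and 3 and of 0.0688 and 0.672 without TSA libraries 1 and 2. With TSA against DMSO, Prc1 (which bundles midzone microtubules) rose by 3.76 ± 1.00 (adjusted p = 0.0119) and Cks1b (a Cdk subunit) fell by 2.24 ± 0.62 (log2 scale, 0.015). The Prc1 call was lost without DMSO library 1 (0.0666), DMSO library 2 (0.0658) or TSA library 2 (0.41), and the Cks1b call without DMSO library 1 (0.0653), TSA library 1 (0.0607) or TSA library 2 (0.163). Smc2 (of condensin) fell by 2.02 ± 0.66 with GSK-343 against DMSO (log2 scale, adjusted p = 0.0251), a call lost without DMSO library 2 (0.135), GSK-343 library 2 (0.0742) or GSK-343 library 3 (0.0711). The Smc2 value was −0.67 (0.409) with the GC and length trend removed, −1.55 (0.0772) with total count scaling, and −1.18 (0.173) and −1.51 (0.204) with limma on log2(TPM + 1) and log2(TPM + 0.1). For Cks1b, total count scaling gave −1.52 (0.078) and limma on log2(TPM + 1) gave −0.83 (0.147).

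Of 18 E2F, pocket protein and MuvB genes, which switch cell cycle genes on and off, 16 were tested. None was called by edgeR between TSA and GSK-343 (1 higher and 1 lower at an unadjusted p under 0.05; DESeq2 called 0 and 0; median 0.02), 3 were higher and 0 lower with TSA than with DMSO (median 0.79), and 5 were higher and 0 lower with GSK-343 than with DMSO (median 0.91). The higher shares were 18.8% with TSA against DMSO, beside 13.1% of all genes, and 31.2% with GSK-343 against DMSO, beside 18.1%. E2f6 (a repressor) rose by 1.80 ± 0.43 with TSA against DMSO (adjusted p = 0.00679, and 0.0608 without DMSO library 1) and by 1.74 ± 0.40 with GSK-343 against DMSO (0.00357). E2f4 (which acts with pocket proteins in resting cells) rose by 1.21 with TSA against DMSO (0.0385) and by 1.43 with GSK-343 against DMSO (0.00936), and Tfdp1 (the partner of E2F factors) rose by 1.40 with TSA against DMSO (0.015). Lin52 (of the MuvB core) rose by 2.36 ± 0.74 with GSK-343 against DMSO (0.0203, and 0.093 without DMSO library 1). For TSA against DMSO, the adjusted p without DMSO library 1, DMSO library 2 and TSA library 2 was 0.0754, 0.183 and 0.285 for E2f4 and 0.0837, 0.0589 and 0.12 for Tfdp1, and for GSK-343 against DMSO it was 0.0823 for E2f4 without DMSO library 2. With the GC and length trend removed, E2f4 was 0.81 (0.129) with TSA against DMSO and 0.31 (0.525) with GSK-343 against DMSO, and Tfdp1 was 0.89 (0.0671) with TSA against DMSO.

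The 9 genes of the immediate early response to mitogens and of Myc were all tested. In this list 0 were higher and 1 lower with TSA than with GSK-343 (median −0.79), 3 higher and 2 lower with TSA than with DMSO (median 0.76), and 5 higher and 1 lower with GSK-343 than with DMSO (median 1.82). The shares were 11.1% lower with TSA against GSK-343, beside 5.68% of all genes, 33.3% higher and 22.2% lower with TSA against DMSO, beside 13.1% and 16.1%, and 55.6% higher and 11.1% lower with GSK-343 against DMSO, beside 18.1% and 21.5%. Ier2 had 106 and 105 CPM under TSA, 188, 278 and 332 CPM under GSK-343, and 50.5 and 49.8 CPM under DMSO, in the order GSK-343 above TSA above DMSO seen for Ccnd3. It fell by 1.34 ± 0.33 with TSA against GSK-343 (log2 scale, adjusted p = 0.0225) and rose by 2.41 ± 0.35 with GSK-343 against DMSO (0.000163). The first was lost without GSK-343 library 3 (0.0845), TSA library 1 (0.0819) or TSA library 2 (0.174), and was −0.51 (0.275) with the GC and length trend removed. Fos (a subunit of AP-1) rose by 2.67 ± 0.37 with TSA against DMSO (0.000208) and by 2.61 ± 0.35 with GSK-343 against DMSO (9.18e-05), and Junb (another) rose by 2.47 ± 0.53 with TSA against DMSO (0.00402) and by 3.26 ± 0.53 with GSK-343 against DMSO (0.000354). Jun fell by 1.57 ± 0.43 with TSA against DMSO (log2 scale, 0.0144), a call lost without DMSO library 2 (0.14) or TSA library 1 (0.117), with total count scaling (−0.88, 0.116) and with limma on log2(TPM + 1) (−0.36, 0.538).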

How the data were processed

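RNA of sorted supporting cells was measured in 7 libraries. Per the submitters' processing notes, the authors used STAR, RSEM and DESeq2 on mm10. The deposited expected counts are RSEM's estimates of reads per gene and the deposited TPM values are scaled by effective length, per the file headers. The versions and the annotation release are not given in the sources used here, and symbols came from GENCODE M21, which matched 48349 of 48709 genes.

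After rounding, the expected counts went into edgeR 4.0.16 under R 4.3.3 (filterByExpr with a minimum count of 10, TMM, robust quasi-likelihood F test, 1 model of 7 libraries, 4 residual degrees of freedom, biological coefficient of variation 0.43), with Benjamini-Hochberg adjustment over 14907 genes at 0.05. Each SE was obtained by dividing the size of the log2 fold change by the root of its F. Folds against groups at 0 use a floor of 3 counts per library, and counting intervals (95%) and floors cover counting error only. Totals of 2724381 to 5974230 counts per library limit precision for genes near that floor.

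On simulated data the fit called 31.3%, 34.3% and 29.9% of genes changed 4-fold for TSA against GSK-343, TSA against DMSO and GSK-343 against DMSO, among 14907 genes. Replicates were checked for duplicates and differed beyond sampling noise, with a chi-square per degree of freedom of 14.0 to 40.4. Alternatives were DESeq2 size factors and total count scaling, no low-count filter, 50 counts in 2 libraries, only the 2 groups compared, a replicate block, protein-coding nuclear genes only, a GC and length trend removed, each library left out, DESeq2 1.42.0 (Wald test), limma 3.58.1 on log2(TPM + 1) and log2(TPM + 0.1), a threshold of 0.01 and, added after the data were seen, no robust estimation. The members and lists were chosen with earlier results of these data known. Named genes are all members called in any comparison, the highest and lowest of each role class by mean TPM, a fixed set of members, up to 3 called genes per further list and comparison, and 3 CDK inhibitors. The remaining members (such as Kif20a, Gins2, Bub1b and Cenpf) were named outside that rule, after their values were seen.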

Additional observations from a re-analysis of the deposited data

How the results depend on the processing

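Without 1 library of the groups compared, members called with TSA against GSK-343 ran 0 to 4 higher and 0 to 3 lower (4 and 2 with all libraries), with TSA against DMSO 3 to 6 higher and 0 to 2 lower (6 and 1), and with GSK-343 against DMSO 3 to 6 higher and 3 to 7 lower (7 and 7). For TSA against GSK-343, higher calls were 2 with 50 counts in 2 libraries, 2 with the replicate block, 1 with limma on log2(TPM + 0.1) and 2 at 0.01. Lower calls were 1 with the GC and length trend removed, 0 with limma at either pseudocount and 1 at 0.01. Over all genes, the higher calls were 694 of 10416 with 50 counts, 325 of 14907 with the replicate block and 503 of 19336 with limma on log2(TPM + 0.1). The lower calls over all genes were 694 of 14907 with the GC and length trend removed and 173 and 116 of 19336 with limma on log2(TPM + 1) and log2(TPM + 0.1). For TSA against DMSO, higher calls were 10 of 38 members with total count scaling, beside 3871 of 14907 genes, and 3 of 19 with 50 counts, beside 1698 of 10416. They were 12 and 11 of 46 with limma on log2(TPM + 1) and log2(TPM + 0.1), beside 5039 and 4599 of 19336 genes, and 3 at 0.01. These higher counts with scaling or limma went with more genes called higher in all. Lower calls were 0 with total count scaling, limma at either pseudocount and 0.01, and 2 with no filter, with only the 2 groups, with the replicate block and with the GC trend removed. Over all genes the lower calls were 1307 of 14907 with total count scaling and 2491 and 2277 of 19336 with limma. They were 2472 of 34021 with no filter, 2670 of 14547 with only the 2 groups, and 2124 and 2541 of 14907 with the replicate block and the GC trend removed. For GSK-343 against DMSO, higher calls were 4 of 19 members with 50 counts, beside 2222 of 10416 genes. Lower calls were 2 with total count scaling, 2 with the replicate block, 3 with the GC trend removed, 0 and 1 with limma on log2(TPM + 1) and log2(TPM + 0.1), and 2 at 0.01. Over all genes the lower calls in these settings but 0.01 were, in the same order, 2273, 2359 and 2904 of 14907 and 3164 and 3049 of 19336. The causes were not tested. Replicate numbers did not pair the libraries (correlations of deviations −0.094 to 0.04). Slbp, not called, changed sign with limma on log2(TPM + 1) for TSA against DMSO (1.12, adjusted p = 0.0494). No called member reversed. E2f1 and Ccne1 kept their calls against DMSO under each alternative that tested them, for both inhibitors, as did Mki67 and Ccnd3 for GSK-343, and no call between TSA and GSK-343 did. E2f1 and Ccne1 reached the level of the low-count filter in no DMSO library, and Mki67 in no GSK-343 library. Among the other settings that ended calls, with log2 fold change and adjusted p, were these. Total count scaling ended the calls with GSK-343 against DMSO of Rrm1 (−1.54, 0.0945), Dut (−1.57, 0.0642), Kif11 (−2.89, 0.0576), Rb1 (−0.81, 0.109) and Cdkn1a (−0.99, 0.0578). Removal of the GC and length trend ended those of Rrm1 (−1.73, 0.0552), Cdk1 (0.0522) and Cdk6 (−0.43, 0.413), and that of Cdk6 with TSA against DMSO (−0.87, 0.153). Limma on log2(TPM + 1) ended the calls with TSA against GSK-343 of Ccnd3 (−1.02, 0.0908), Cdk4 (−1.50, 0.115) and Rb1 (2.35, 0.068), with TSA against DMSO of Cdk6 (−0.40, 0.626), and with GSK-343 against DMSO of Rrm1 (−1.66, 0.127), Dut (−1.39, 0.136), Cdk1 (0.0634), Kif11 (−0.79, 0.0557), Cdk6 (−0.43, 0.572) and Rb1 (−0.81, 0.316). The replicate block ended those of Cdt1 (0.185), Rrm2 (0.159) and Ccnd3 (0.0636) with TSA against GSK-343. With GSK-343 against DMSO it ended those of Rrm1 (0.112), Dut (0.0902), Cdk1 (0.0531), Kif11 (0.0865), Cdk6 (0.166) and Rb1 (0.102). Limma on log2(TPM + 0.1) ended the calls with TSA against GSK-343 of Ccne1 (2.86, 0.0884), Ccnd3 (−1.02, 0.102), Cdk4 (−1.50, 0.144) and Rb1 (2.44, 0.0894). With GSK-343 against DMSO it ended those of Rrm1 (0.132), Dut (0.149), Kif11 (0.0586), Cdk6 (0.569) and Rb1 (0.316). Low counts limit the G2/M genes most.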
